A study of Zea mays with 4 samples.

Results

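The genes described here are 8 genes of the maize (Zea mays) basal endosperm transfer layer, taken by their IDs from the 39625 gene IDs counted in each library. They are the regulator MRP1 (GRMZM2G111306), the response regulator gene tcrr-1 (GRMZM2G016145), the signalling peptide gene Meg1 (GRMZM2G354335), betl4 (GRMZM2G073290), betl9 (GRMZM2G087413), betl10 (GRMZM2G091445), bap2 (GRMZM2G152655) and ebe2 (GRMZM2G167733). All 8 had a row in every file. A reference table of another assembly paired 7 of the IDs with these names. It had no entry for GRMZM2G111306, and its synonym MRP1 belongs to the different gene mrpa1, which was not used.

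RNA was sequenced from whole kernels 14 days after pollination. One group was wild type (WT) and the other carried the label zmknl1 mutant, after the maize gene for the kinetochore protein KNL1. Each group had 2 libraries from separate ears, and the labels name no allele and no background strain. A whole kernel holds endosperm, embryo and maternal tissue, so fewer cells of a type and less RNA per cell cannot be told apart in these values.

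The transfer layer is the sheet of endosperm cells that faces the maternal tissue at the base of the kernel. Its cells grow ingrowths of the wall that widen the membrane, and they take up sugars and amino acids for the whole seed. MRP1 is a MYB-related transcription factor of these cells. It is known to switch on genes of the layer, among them bap2 (also called betl2), betl9, betl10, Meg1 and tcrr-1. Many of the other genes encode small secreted proteins that are thought to guard the entry into the seed or to carry signals.

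All libraries held between 16595289 and 22725030 counts in genes. WT replicate 2 stood apart: its 10 most abundant genes took 25.3% of the counts, against 6.74 to 7.77% elsewhere, and 23.9% of its reads aligned to several places, against 10.9 to 13.5%. Levels are given as CPM, reads of a gene per 1000000 counted, on library sizes scaled by the TMM method of edgeR. A single count was worth 0.0399 to 0.0853 CPM. Gene lengths were not used, so a larger CPM or share of counts of one gene than of another does not show more transcripts of it. Intervals on counts are exact Poisson or binomial intervals at 95%, and they cover counting error only.

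Every one of the 8 genes measured higher in both zmknl1 libraries than in either WT library. Their summed level was 34.4 and 56 CPM in WT replicates 1 and 2, and 247 and 165 CPM in zmknl1 replicates 1 and 2. The highest value of a gene was in zmknl1 replicate 1 for 7 genes and in zmknl1 replicate 2 for ebe2. Over all 19519 genes that passed the low-count filter, 21.9% lay above both WT libraries in both zmknl1 libraries.

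**Figure D1:**
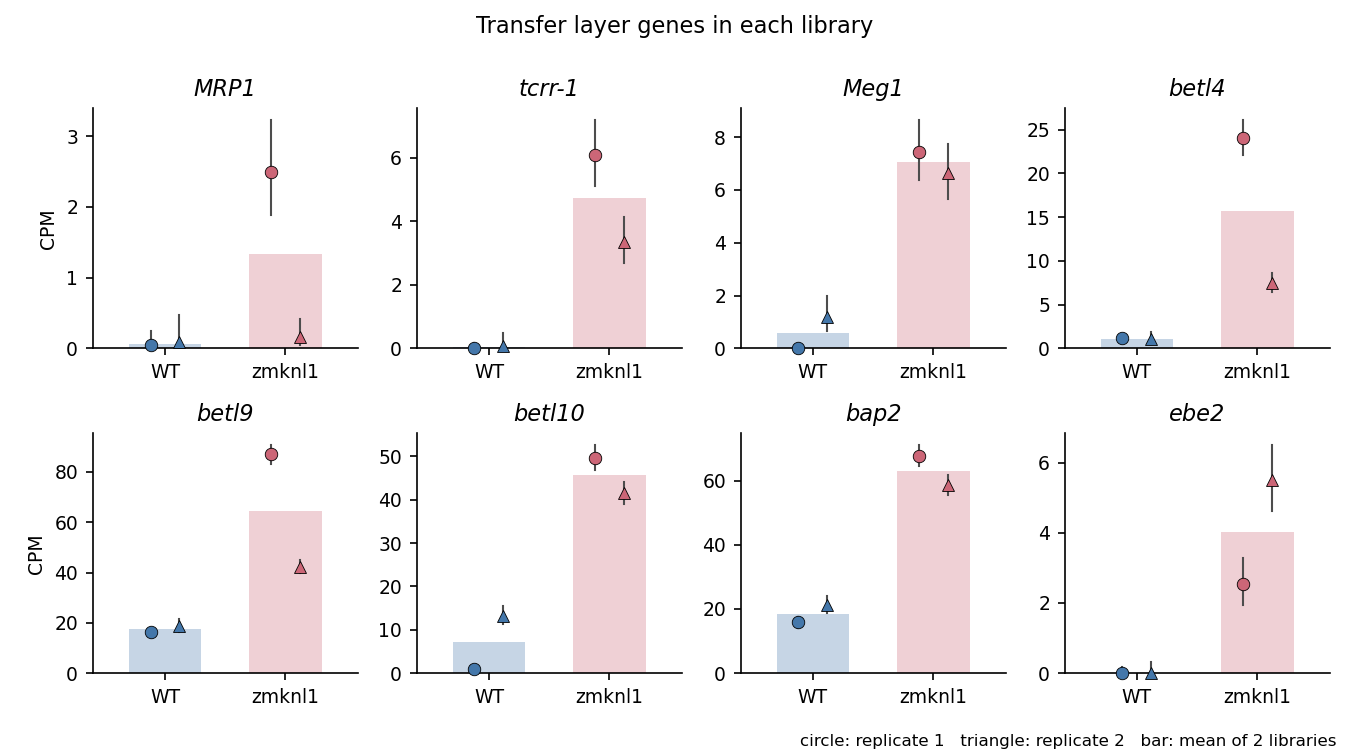
CPM of the 8 transfer layer genes (vertical axis, linear, a separate scale in each panel) in WT and zmknl1 kernels; points are libraries with exact 95% Poisson intervals, bars the mean of 2 libraries. Both zmknl1 points lie above both WT points in each panel, by little for MRP1 in zmknl1 replicate 2 (0.16 against 0.0853 CPM in WT replicate 2).

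The regulator MRP1 was barely detected in WT. It had 1 count in each WT library, which is 0.0439 and 0.0853 CPM, against 57 counts (2.5 CPM) in zmknl1 replicate 1 and 4 counts (0.16 CPM) in zmknl1 replicate 2. Only zmknl1 replicate 1 was clearly apart: the interval of zmknl1 replicate 2, from 0.0435 to 0.409 CPM, overlapped those of both WT libraries, which reached 0.245 and 0.475 CPM. Over summed counts the ratio of zmknl1 to WT was 22, with a counting interval from 5.83 to 186. MRP1 failed the low-count filter and was not tested with it. When every gene with a count was tested, the adjusted p was 0.585 by edgeR and 0.35 by DESeq2, so a difference was not detectable at this depth and number of libraries.

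Among the known MRP1 targets, bap2 and betl9 were the most steady within WT. The gene bap2 encodes a small secreted protein of the layer named for antifungal activity. It stood at 15.8 and 21.3 CPM in WT libraries and at 67.8 and 58.5 CPM in zmknl1 libraries. The groups did not overlap, and the lower zmknl1 library was 2.75 times the higher WT library. The fitted log2 fold change was 1.77 ± 0.40 (SE, n = 2 per genotype) (adjusted p = 0.261 by edgeR and 0.0093 by DESeq2).

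The gene betl9, which encodes another small secreted protein, measured 16.3 and 18.9 CPM in WT. In zmknl1 it had 86.9 CPM in replicate 1 and 42.3 CPM in replicate 2. Both zmknl1 libraries were above WT, but the first was 2.05 times the second (95% interval 1.9 to 2.21). Its log2 fold change was 1.87 ± 0.48 (SE) (adjusted p = 0.277 by edgeR and 0.0175 by DESeq2).

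The gene betl10 showed a different WT pattern. It measured 1.05 CPM in WT replicate 1 and 13.3 CPM in WT replicate 2, a 12.6-fold gap, against 49.7 and 41.5 CPM in the zmknl1 libraries. A gap of at least 4 times in that direction, on the scale of CPM + 1, was found in 2.38% of all tested genes. The zmknl1 libraries were close to each other and the lower of them was 3.12 times the higher WT library. The log2 fold change was 2.69 ± 0.99 (SE) (adjusted p = 0.413 by edgeR and 0.0474 by DESeq2). Without WT replicate 1 it was 1.77, and without WT replicate 2 it was 5.44.

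Meg1, an imprinted gene expressed from the maternal copy early on, encodes a peptide that promotes transfer cell differentiation. It had 0 counts in WT replicate 1 and 14 counts (1.19 CPM) in WT replicate 2. In the zmknl1 libraries it had 7.45 and 6.63 CPM, which did not differ beyond counting error. As with betl10, WT replicate 2 was above WT replicate 1. The log2 fold change of Meg1 was 3.65 ± 1.53 (SE) (adjusted p = 0.474 by edgeR and 0.107 by DESeq2), past neither limit. Meg genes occur in close copies, so a single member's value is uncertain.

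The gene tcrr-1 encodes a response regulator of two-component signalling found in transfer cells. It had 0 counts in WT replicate 1 and 1 count in WT replicate 2, against 139 counts (6.09 CPM) and 84 counts (3.36 CPM) in the zmknl1 libraries. Transcripts were thus near the limit of detection in WT and plain in zmknl1. The ratio of summed counts was 161, with a counting interval from 28.5 to 6380, since it rests on 1 WT count. The adjusted p was 0.251 by edgeR and 0.00231 by DESeq2.

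For betl4 and ebe2, MRP1 control is not taken as known here. The gene betl4 marks the layer and stood at 1.14 and 1.11 CPM in WT libraries, against 24.0 and 7.43 CPM in zmknl1. The WT libraries were alike, and zmknl1 replicate 1 was 3.24 times zmknl1 replicate 2 (2.74 to 3.84). The log2 fold change was 3.80 ± 0.78 (SE) (adjusted p = 0.229 by edgeR and 0.000261 by DESeq2).

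The gene ebe2 is named for its expression in the embryo sac, the basal endosperm transfer layer and the embryo-surrounding region. It had 0 counts in both WT libraries, with exact upper limits of 0.162 and 0.315 CPM, against 58 counts (2.54 CPM) and 138 counts (5.51 CPM) in zmknl1. Set against a floor of 3 counts for both WT libraries summed, it was at least 47.1-fold higher in zmknl1; the exact interval, which is wider, gives a lower limit of 37.9-fold. It was the only one of the 8 with more in zmknl1 replicate 2 than in replicate 1, the ratio of replicate 1 to replicate 2 being 0.461 (0.333 to 0.631). The adjusted p was 0.229 by edgeR and 0.000821 by DESeq2.

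Of the 7 tested genes, edgeR's quasi-likelihood test with Benjamini-Hochberg adjustment over all 19519 genes called 0, against 0.0154% of all genes called higher. At an unadjusted p under 0.05 it listed 7 of 7 as higher, against 4.94% of all genes. DESeq2, which the submitters used, called 6 of 7 higher, Meg1 excepted, against 1.53% of all genes. The filter limit was 0.496 CPM on library sizes before TMM scaling, unlike the CPM given elsewhere. The genes betl4, betl9, betl10 and bap2 reached it in both WT libraries, and DESeq2 called 4 of these 4. The genes ebe2 and tcrr-1 reached this limit in neither WT library and passed only through zmknl1 libraries, so they had to differ to be counted at all. Meg1 reached it in WT replicate 2 but not in WT replicate 1, and needed a zmknl1 library to pass. Over the 4 genes that reached the limit in both WT libraries the median fitted log2 fold change was 2.28, against 0.01 over all tested genes. Over the 7 it was 3.65, also with ebe2 set to its lower bound. However, ebe2 and tcrr-1 could enter it only by being high in zmknl1, and Meg1 only with a zmknl1 library at the limit. The genes were chosen with earlier results of these data known. Setting them against shares or medians of all genes, here and below, is thus no independent support.

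Calls depended on the tool, the filter and single libraries, while every fitted fold change of the 8 genes stayed above 0 in the alternatives run. With both zmknl1 libraries above both WT libraries for all 8, these alternatives could hardly turn a sign. The constant sign is therefore no added support. Without the low-count filter edgeR called 7 of 8 genes, MRP1 excepted, against 1.11% of all genes called higher, and DESeq2 6 of 8, against 1.14%. With DESeq2 and WT replicate 1 left out, betl4, betl10 and ebe2 passed (0.989% of all genes were called higher), and with WT replicate 2 left out all but MRP1 passed (5.74%). Without zmknl1 replicate 1 only ebe2 passed (0.149%), and without zmknl1 replicate 2 only betl4 did (0.372%), with no adjusted p given for ebe2. In edgeR, 6 genes passed without WT replicate 2 (1.94% of all genes) and 0 without WT replicate 1 (0.312%), zmknl1 replicate 1 (0.0336%) or zmknl1 replicate 2 (0.111%).

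**Figure D2:**
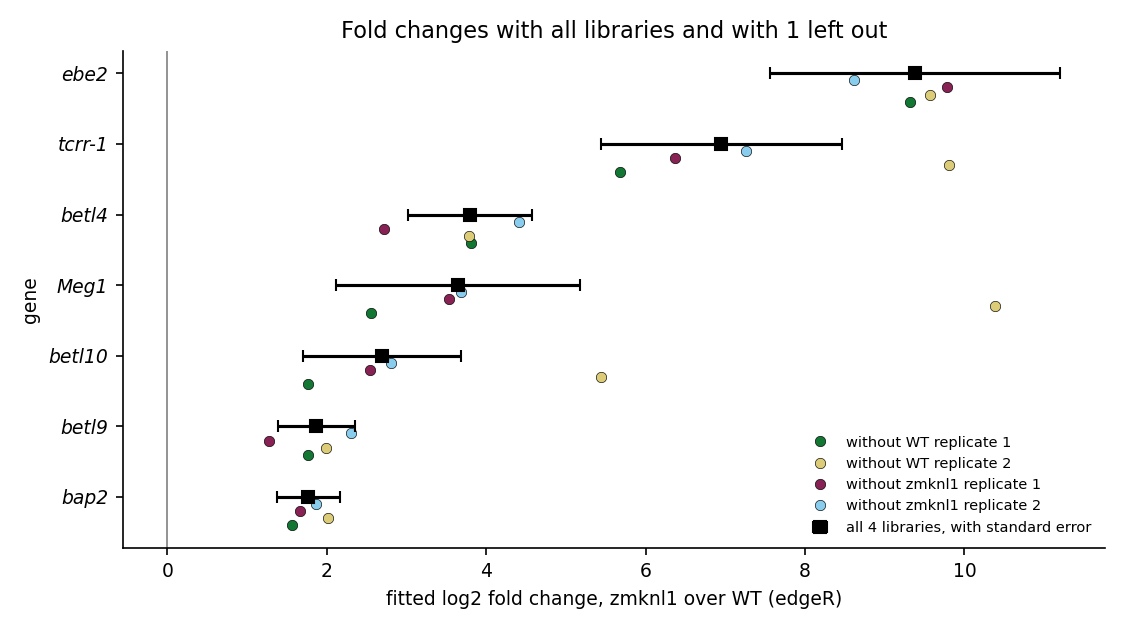
Fitted edgeR log2 fold change of zmknl1 over WT (horizontal axis) for the 7 tested genes; squares with bars are all 4 libraries with the standard error, circles the fits with 1 library left out. Every point is above 0, which follows from groups that do not overlap. The fold change of bap2 stays between 1.56 and 2.01, and that of Meg1 runs from 2.55 to 10.38. Values of ebe2, tcrr-1 and Meg1, with 0 counts in at least 1 WT library, depend on the fit's prior count and are no bounds.

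The regulator and its known targets did not keep a fixed ratio between the zmknl1 libraries. MRP1 was 15.6 times higher in replicate 1 than in replicate 2 (95% interval 5.78 to 59.3). The known targets differed much less: the ratio was 2.05 for betl9, 1.81 for tcrr-1 (1.37 to 2.41), 1.2 for betl10 (1.1 to 1.3), 1.16 for bap2 (1.08 to 1.24) and 1.12 for Meg1 (0.901 to 1.4). The interval of MRP1 lay above those of all other 7 genes. In zmknl1 replicate 2, with MRP1 at 4 counts, the 5 known targets were still between 2.24 (betl9) and 39.3 (tcrr-1, on 1 WT count) times the higher WT library. Within WT, both libraries had 1 count of MRP1, while betl10 and Meg1 differed between them.

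**Figure D3:**
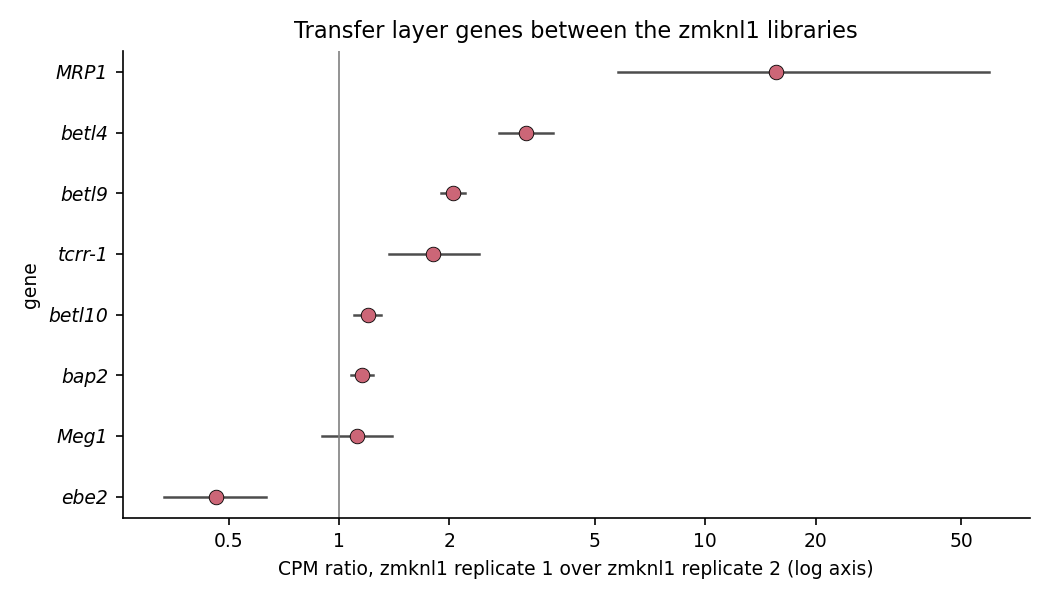
Ratio of CPM in zmknl1 replicate 1 to zmknl1 replicate 2 (horizontal log axis) for the 8 genes; points are ratios and lines exact 95% binomial intervals for counting error only. MRP1 at 15.6 stands to the right of the other 7, and ebe2 at 0.461 is the only one below 1.

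Expressed as log2((CPM + 0.5) / (MRP1 CPM + 0.5)), all 7 other genes had a higher mean ratio in zmknl1 than in WT, with a median change of 1.78, and of 1.71 over the 5 known targets. The direction turned for betl9 and bap2, from 0.44 and 0.43 to -0.55 and -0.56 with 0.1 CPM added in place of 0.5, and to -0.14 and -0.55 without zmknl1 replicate 2. For bap2 this log2 ratio stood at 4.91 and 5.22 in WT libraries and at 4.51 and 6.48 in zmknl1 libraries. For betl9 it stood at 4.95 and 5.05 in WT libraries and at 4.87 and 6.02 in zmknl1 libraries. These 2 genes were thus lower relative to MRP1 in zmknl1 replicate 1 than in either WT library, whereas all 7 were higher than in WT in zmknl1 replicate 2. With MRP1 at 1, 1 and 4 counts in 3 libraries, the ratio there mostly follows the other gene and the added 0.5. Without zmknl1 replicate 2 the median change was 0.7. No test was made: with 2 against 2 libraries the smallest exact two-sided p is 0.333.

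The make-up of the set also differed between libraries. In WT replicate 1, betl9 and bap2 held 93.5% of the scaled counts of the 8 genes, against 71.8% in WT replicate 2 and 62.6 and 60.9% in the zmknl1 libraries. The summed level of the other 6 genes was 2.24 and 15.8 CPM in WT libraries and 92.3 and 64.6 CPM in zmknl1. WT replicate 2 therefore lay between WT replicate 1 and zmknl1 in both measures. This rested mostly on betl10, which was at 13.3 CPM in WT replicate 2. Its share of the set was 3.07 and 23.7% in WT replicates 1 and 2, while that of betl4 was 3.32 and 1.98%.

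Other genes of the layer were taken from a list by name, which matched 6 IDs. Of these 6 IDs, 4 were tested. EdgeR called 0, with 2 at an unadjusted p under 0.05 (10.2% of all genes in either direction), and DESeq2 called 1 higher (1.53% of all genes). The median log2 fold change was 3.07, but betl3, meg2 and mn1 had only 0 to 16 counts in WT libraries. Those genes passed the low-count filter only with the help of a zmknl1 library, so the median is no separate support. The other, ebe1, had a log2 fold change of -0.54. The call was a Meg-family gene, meg2 (GRMZM2G088896), at 0.571 and 0.597 CPM in WT libraries and at 11.6 and 4.91 CPM in zmknl1 libraries (adjusted p = 0.00234 by DESeq2, 0.261 by edgeR). The remaining genes are named after their values were seen. The defensin-like gene betl3 (GRMZM2G175976) was at 0 and 1.11 CPM in WT libraries and at 3.72 and 1.8 CPM in zmknl1 libraries (adjusted p = 0.68 by DESeq2). The gene ebe1 (GRMZM2G129157), named like ebe2, did not follow it: it was at 21.6 and 15.9 CPM in WT libraries and at 9.77 and 16.1 CPM in zmknl1 libraries, with overlapping groups. The gene betl1 (GRMZM2G082785) had 0 counts in every library, and GRMZM2G094054, which the table gives the same name as meg2, had 0, 0, 5 and 1 counts. Reads that fit several copies were set aside by the counting, so a 0 in such a family does not show that the family was silent.

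Genes of sugar entry belong to the transport role of the layer. The cell wall invertase gene mn1 (GRMZM2G119689), which splits sucrose at the base of the kernel, was at 0 and 1.36 CPM in WT libraries and at 8.1 and 9.39 CPM in zmknl1 libraries. It did not pass in either tool (adjusted p = 0.0702 by DESeq2, 0.445 by edgeR), and its WT libraries were split like those of betl10 and Meg1. A second cell wall invertase gene, incw1 (GRMZM2G139300), was at 8.13 and 2.3 CPM in WT libraries and at 58.6 and 22.6 CPM in zmknl1 libraries (adjusted p = 0.00339 by DESeq2, 0.278 by edgeR). The sucrose transporter genes sut1, sut2 and sut4 had overlapping groups, with log2 fold changes of -0.19, 0.04 and -0.21. Of the 5 tested of 6 matched IDs, mn1 included, edgeR called 0, while 2 had an unadjusted p under 0.05 (10.2% of all genes), and DESeq2 called 1 higher (1.53%).

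**Figure D4:**
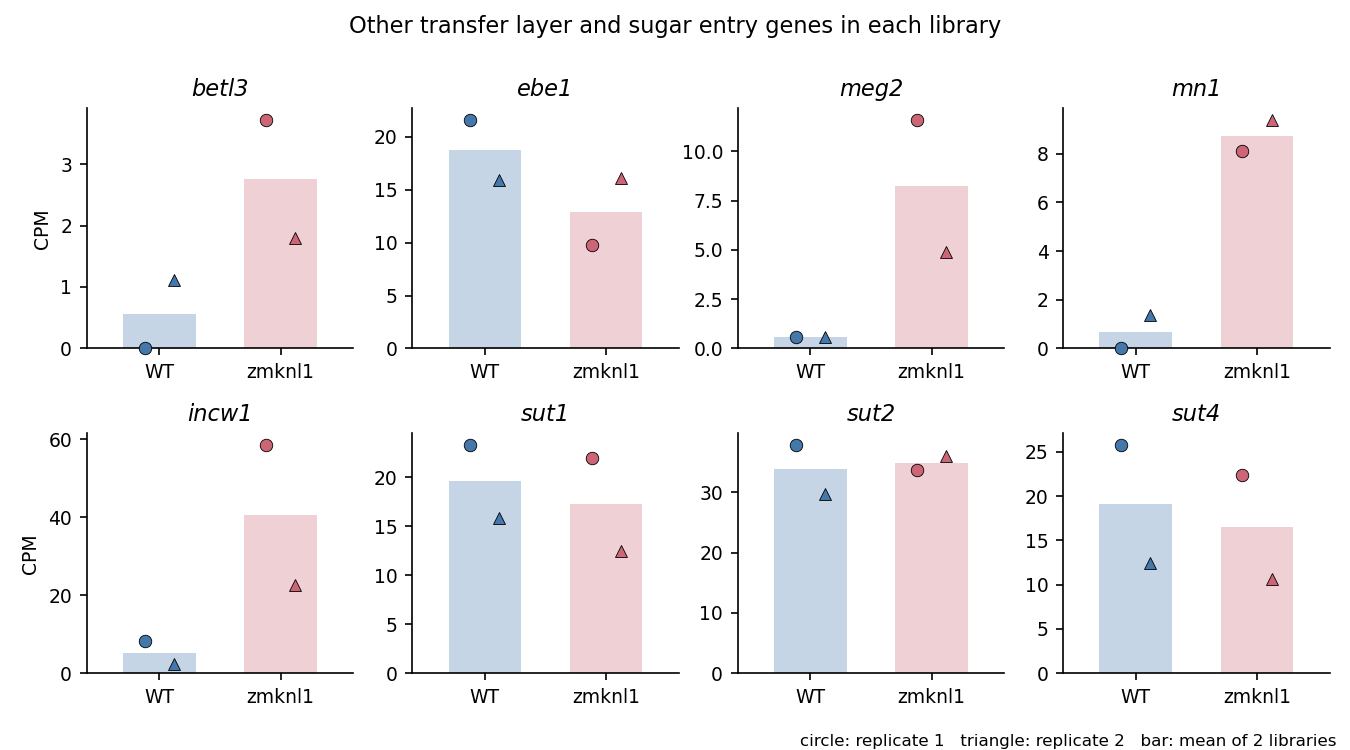
CPM (vertical axis, linear, a separate scale in each panel) of 4 other transfer layer genes and of 4 further sugar entry genes in WT and zmknl1; points are libraries and bars the mean of 2. The zmknl1 points lie above both WT points for betl3, meg2, mn1 and incw1, and overlap them for ebe1 and the sucrose transporters.

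In two-component signalling, the family of tcrr-1, few members were called. Of 22 matched IDs 17 were tested: edgeR called 0, with 3 at an unadjusted p under 0.05 (10.2% of all genes), and DESeq2 called 1 higher (1.53% of all genes), the median log2 fold change being -0.23. That gene, hp3 (GRMZM2G451604), encodes a phosphotransfer protein that relays the signal to response regulators. It was at 15.4 and 21.6 CPM in WT libraries and at 54.6 and 68.9 CPM in zmknl1 libraries (adjusted p = 0.0132 by DESeq2, 0.273 by edgeR). Among the 17, 2 lay above both WT libraries, 4 below and 11 overlapped, against 21.9, 20 and 58.1% of all tested genes. Above were hp3 and hp1 (GRMZM2G016439), the latter at 19.0 and 14.7 CPM in WT libraries and 42.8 and 43.7 CPM in zmknl1 libraries. Below were rr10, hk1b1, hk1b2 and hk2. Of these, hk1b2 (GRMZM5G833140) was at 18.9 and 9.98 CPM in WT libraries and 4.99 and 3.36 CPM in zmknl1 libraries (unadjusted p = 0.0207 by edgeR). Another phosphotransfer gene, hp2, overlapped, with a log2 fold change of -0.03. Apart from hp3, these genes were named after their values were seen. Of genes for cytokinin synthesis and breakdown, 7 of 14 IDs were tested, with 0 called by edgeR and 0 by DESeq2. At an unadjusted p under 0.05 edgeR listed 2 (10.2% of all genes), which went opposite ways and were named after their values were seen. Lower in zmknl1 was ckx12 (GRMZM2G008792), at 6.54 and 8.36 CPM in WT libraries and at 2.28 and 1.24 CPM in zmknl1 libraries. Higher was ckx5 (GRMZM2G325612), with 0 counts in both WT libraries and 0.788 and 0.959 CPM in zmknl1 libraries. The cytokinin oxidase gene cko2 (GRMZM2G050997) averaged 8.65 ± 1.87 CPM over WT libraries and 8.36 ± 0.249 CPM over zmknl1 libraries, and the synthesis gene ipt1 (GRMZM2G097258) 6.24 ± 1.18 and 8.91 ± 0.462 CPM (SD, n = 2).

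Of small defence proteins outside the layer, 2 of 5 IDs were tested. EdgeR called 0 of them, with 2 at an unadjusted p under 0.05 (10.2% of all genes). DESeq2 called 1 lower (1.95% of all genes) and 1 higher (1.53%). The defensin gene def1 (GRMZM2G153488) was at 28.9 and 77.4 CPM in WT libraries and at 0 and 0.2 CPM in zmknl1 libraries, opposite to betl4 and bap2 (adjusted p = 2.34e-18 by DESeq2, 0.113 by edgeR). The zeamatin-like gene zlp (GRMZM2G374971) was at 2.2 and 4.77 CPM in WT libraries and at 78.4 and 4.11 CPM in zmknl1 libraries, so its groups overlapped and the excess behind its DESeq2 call (adjusted p = 0.0106; 0.38 by edgeR) lay in zmknl1 replicate 1.

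Markers of other kernel tissues also differed between the groups, some lists higher and some lower in zmknl1, and their part in the result was not tested. The list of maternal tissue markers went the same way as the transfer layer genes. Its sum was 23.8 and 24 CPM in WT libraries and 62.7 and 81.4 CPM in zmknl1 libraries. Of the 5 tested IDs, 4 lay above both WT libraries (21.9% of all tested genes), and 3 of 8 IDs were at 0 throughout, p1 and pl1 among them. The largest part was si1 (GRMZM2G139073), at 12.2 and 16.1 CPM in WT libraries and at 36.7 and 38.3 CPM in zmknl1 libraries. The tested IDs were MADS-box genes (zag1, zag2, zmm2 and si1), and what they show of maternal kernel tissue was not tested. DESeq2 called 1 of the tested IDs higher, against 1.53% of all genes. This was zag2 (GRMZM2G160687), at 4.3 and 4.43 CPM in WT libraries and at 16.6 and 21.5 CPM in zmknl1 libraries (adjusted p = 0.0145 by DESeq2, 0.277 by edgeR). Starchy endosperm markers went the other way, with sums of 30000 and 78500 CPM in WT libraries and 14200 and 20400 CPM in zmknl1 libraries. The largest part of both WT sums was sh1, at 12600 and 30100 CPM. Next in WT replicate 2 was fl2, at 849 and 20900 CPM in WT libraries and 3350 and 2780 CPM in zmknl1 libraries, with overlapping groups. Of the 13, 7 lay below both WT libraries, against 20% of all tested genes, and 6 overlapped. DESeq2 called 4 lower (1.95% of all genes), led by wx1, bz15 and sh1. Not all fell: the pbf1 ID GRMZM2G146267 had a log2 fold change of 0.15. Embryo markers summed to 2970 and 723 CPM in WT libraries and 307 and 184 CPM in zmknl1 libraries, with 5 of 8 tested below (20%). Most of the WT sums was ole1, at 2160 and 449 CPM. DESeq2 called 3 lower, ole1, ole17 and glb2, against 1.95% of all genes. Not all embryo markers fell: rab17 and wox2a had log2 fold changes of 2.03 and 0.97, with overlapping groups. The untested mlg3 had 0 counts in WT libraries and 2.85 and 0.16 CPM in zmknl1 libraries. In every library lec1 and wox5b had 0 counts. Aleurone markers summed to 456 and 393 CPM in WT libraries and 286 and 276 CPM in zmknl1 libraries, with 4 of 6 tested below (20%). DESeq2 called vp1 lower (1.95% of all genes), and c1 was at 0. In these 4 lists edgeR called 0, with 3, 4, 5 and 2 genes at an unadjusted p under 0.05 in the order given, against 10.2% of all genes.

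Endosperm cells around the embryo, where ebe2 is also known to be expressed, gave no such order. Their 4 markers summed to 0.264 and 14.2 CPM in WT libraries and 3.9 and 7.67 CPM in zmknl1 libraries. All 3 tested IDs overlapped, against 58.1% of all tested genes. DESeq2 called 0 of them, as did edgeR, with 0 at an unadjusted p under 0.05 (10.2% of all genes). So few genes, with few counts, could hardly stand apart from these shares. The marker with the most counts, esr2 (GRMZM2G315601), was at 0 and 9.81 CPM in WT libraries and at 1.58 and 4.63 CPM in zmknl1 libraries, and esr-6 (GRMZM2G048353) had 0.264 and 2.05 CPM, and 1.58 and 0.24 CPM. Like betl10, Meg1 and mn1, esr2 was low in WT replicate 1 and higher in WT replicate 2.

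**Figure D5:**
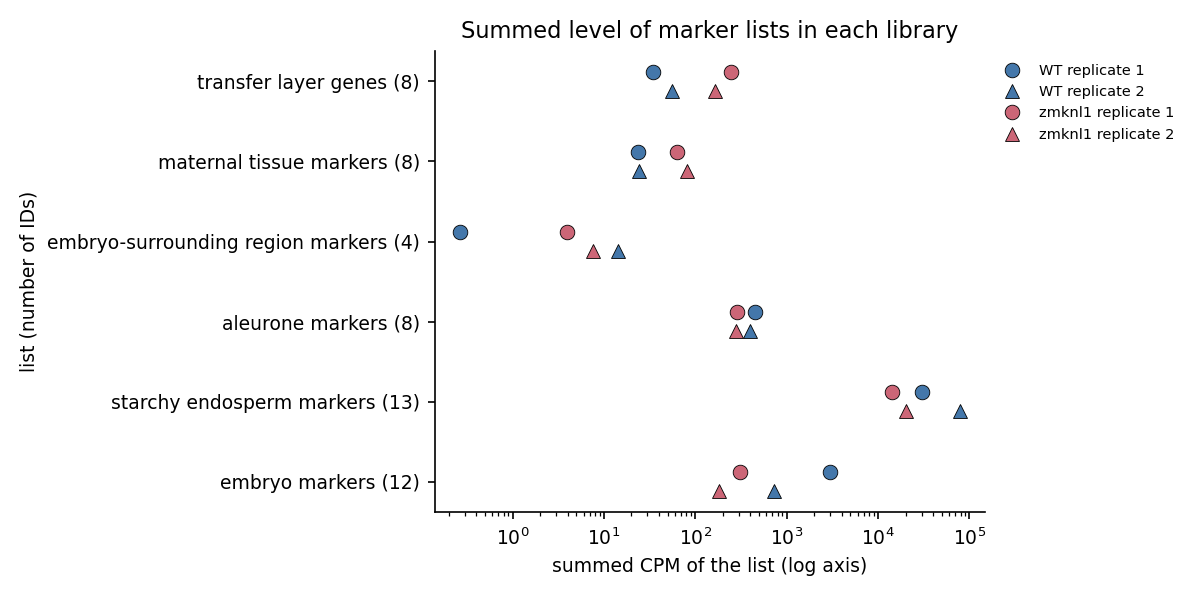
Summed CPM (horizontal log axis) of the 8 transfer layer genes and of 5 lists of tissue markers in each library; circles are replicate 1, triangles replicate 2, blue WT and red zmknl1. Both zmknl1 sums are above WT for the transfer layer and maternal lists (34.4 and 56 against 247 and 165 CPM for the former), below it for aleurone, starchy endosperm and embryo, and between the WT values for the embryo-surrounding region.

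Among 1526 named genes with a mean of at least 5 CPM, the closest to the mean profile of the 7 transfer layer genes at 1 CPM or more were NAC12 (GRMZM2G018436), ccp1 (GRMZM2G098298), bap-3b (GRMZM2G133370), ANAC044 (GRMZM2G104078) and BURP6 (GRMZM2G406170). Likeness was the Euclidean distance of centred log2(CPM + 1) over 4 libraries, which was 0.198 to 0.578 for these 5 and 0.399 to 1.69 for the 7 genes themselves. NAC12, a transcription factor gene of the NAC family, was at 1.58 and 3.07 CPM in WT libraries and at 20.1 and 15.7 CPM in zmknl1 libraries. The cysteine protease gene ccp1 had 39 and 61.8 CPM, and 245 and 152 CPM. The gene bap-3b, by its name of the same antifungal protein family as bap2, was at 0 and 1.36 CPM in WT libraries and at 10.9 and 7.91 CPM in zmknl1 libraries. With only 4 libraries, such likeness is a description of these values.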

How the data were processed

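RNA from whole kernels was sequenced on an Illumina HiSeq instrument, per the labels' protocols, in 4 libraries, 2 per genotype, grouped by their titles. The authors' steps, per the submitters' processing notes, were trimming by Trimmomatic 0.36, alignment to B73 RefGen_v3 by HISAT2 2.0.1 and counting per gene by HTSeq, whose strand and overlap settings are not given in the sources used here. The deposited tables hold raw counts per gene. Their 5 closing lines of unassigned reads (35.8 to 47.8% of each table) were left out. Replicate libraries were no copies: chi-square per degree of freedom was 344 in WT and 70 in zmknl1. P-values measure the spread between separate ears, 2 per genotype.

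Counts were filtered with filterByExpr (minimum count 10), scaled with TMM and tested with the edgeR 4.0.16 quasi-likelihood F-test (two-sided, Benjamini-Hochberg, limit 0.05) in R 4.3.3; the biological coefficient of variation was 0.536. DESeq2 1.42.0, other scalings and filters, a replicate block and left-out libraries were alternatives. SEs are the fold change over the root of its F statistic. Names came from a RefSeq table of Zm-B73-REFERENCE-NAM-5.0, in which 48.1% of IDs were found. List genes named in the text are those DESeq2 or edgeR called, up to 3 per list, or else the 2 whose mean CPM was highest. Some more were named after their values were seen, among them si1, rab17, wox2a and mlg3. From the lists, 6 homonyms were left out. The genes and lists were chosen with earlier results of these data known.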

Additional observations from a re-analysis of the deposited data

How the results depend on the processing

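All 8 genes kept a positive fitted log2 fold change in every alternative that gave a value, as groups that do not overlap make nearly certain. With edgeR as reported, 3 genes of the whole table were called higher, 1 lower, and 0 of the 8. DESeq2 called 299, 380 and 6; DESeq2 without a filter, chosen after seeing the data, 310, 399 and 6; edgeR without a filter 303, 412 and 7. RLE scaling, a filter of 10 counts in 2 libraries, and library sizes without the 10 most abundant genes left all 3 counts within 1.5 times; the last moved the median of all genes by 0.21 (log2). Leaving out 1 library gave 7 to 415, 12 to 390 and 0 to 6 in edgeR, and, chosen after seeing the data, 206, 1228, 31 and 77 higher, 199, 737, 153 and 147 lower and 3, 7, 1 and 1 of the 8 in DESeq2 without WT replicates 1 and 2 and zmknl1 replicates 1 and 2 in turn. The median log2 fold change of the genes ran from 2.72 to 5.10 in edgeR and from 2.73 to 5.16 in DESeq2, highest without WT replicate 2 in both. The median change relative to MRP1 ran from 0.7 to 2.61 over left-out libraries and was 1.2 with 0.1 CPM added and 1.5 with 1 CPM, with the direction of betl9 and bap2 turning as given above. The cause of these moves was not tested. With 2 libraries against 1, the lone library is assumed to vary like the other group. With the replicate number as a block edgeR called 267 higher, 375 lower and 6 of the 8 (1.37% of all genes higher). The numbers are not stated to pair ears; deviations of replicates 1 correlated across genes at 0.37, over 2 pairs. Depth limits MRP1, tcrr-1, Meg1 and ebe2 in WT, where they had 0 to 14 counts.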
